A study of Mus musculus and Rattus norvegicus with 32 samples.

Results

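Phlda3 and 9 other genes known as targets of the transcription factor p53 were followed through the hearts and cardiomyocytes of a study of METTL5, the methyltransferase that places m6A on 18S ribosomal RNA. The members were taken by symbol: Phlda3, Cdkn1a, Mdm2, Ccng1, Bax, Trp53inp1, Sesn1, Sesn2, Eda2r and Zmat3. They are 10 of 55487 genes listed in each of the 3 mouse tables and 10 of 32883 genes in the rat table, where Trp53inp1 carries the rat symbol Tp53inp1. All 10 members passed the filter on low counts in each table. The set was chosen by the level of Phlda3, which was high in METTL5-cKO hearts at 3 months and after pressure overload. Its levels in those hearts are therefore given as a description, without a test, and the question put to the data was whether the other 9 members followed.

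RNA was sequenced in 8 groups with 4 libraries each. At 1 month of age, hearts of METTL5-KO mice, which lack METTL5 in the whole body, were set against those of littermate controls. At 3 months of age, hearts of METTL5-cKO mice were set against littermate controls. These animals carried METTL5 fl/fl alleles and Myh6-Cre (αMHC-Cre), whose promoter acts in cardiomyocytes, so the other cells of the heart keep the gene. A further pair of METTL5-cKO and control groups was taken 4 weeks after transverse aortic constriction (TAC), a surgery that narrows the aorta and raises the pressure load on the left ventricle. The labels give 3 months as the age of these mice too. All mice were C57BL/6, and whether the controls carried Cre is not given in the sources used here. None of the 8 groups was of sham-operated hearts. The last 2 groups were neonatal rat ventricular cardiomyocytes (NRVMs) of Sprague Dawley rats at postnatal day 2, in which an adenovirus delivered GFP (AdGFP) or the human METTL5 coding sequence (AdMETTL5). Both of these groups received 20 μM phenylephrine (PE), an agonist of α1-adrenergic receptors that makes cardiomyocytes grow, for 24 h. Nothing in the labels says that the libraries of a group came from separate animals or cultures, so the p-values measure the spread between these libraries.

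p53 is held at a low level in unstressed cells by MDM2, an E3 ubiquitin ligase that is itself a p53 target and closes a feedback loop. DNA damage, ribosomal stress and other insults free p53 from MDM2, and p53 then switches on genes that halt the cell cycle, repair DNA, restrain growth signaling or trigger cell death. PHLDA3 is a small protein with a pleckstrin homology domain that competes with AKT for membrane lipids and so restrains AKT signaling. In the heart, AKT signaling is known for its part in growth and survival of cardiomyocytes. Most of these genes also answer to other transcription factors, so their RNA levels are no direct measure of p53 activity.

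The response element of p53 is a pair of half-sites of 10 bases that may be separated by a spacer, and the stretch upstream of a start site is 1 place where such elements can lie. The canonical half-site is its own reverse complement, so 1 search covers both strands. RefSeq promoter windows of the mouse build GRCm38.p6 (250 bases before to 50 bases after a start site) were found for 8 of the 10 members, all but Zmat3 and Trp53inp1. A half-site without a mismatch was present in windows of 5 members (Cdkn1a, Ccng1, Bax, Mdm2 and Sesn1) and in 8.36% of all 32851 windows. A pair of half-sites with at most 1 mismatch in all and a spacer of 0 to 13 bases was found for Cdkn1a, Ccng1 and Bax and in 1.09% of all windows. The windows of Phlda3, Sesn2 and Eda2r held no half-site. The 250 bases upstream of a start site are printed for Phlda3 and for the 3 members with such a pair, 5′ to 3′ on the strand of the gene, with the half-sites of these pairs in capitals.
Phlda3 (chr1:135765835-135766084, plus strand): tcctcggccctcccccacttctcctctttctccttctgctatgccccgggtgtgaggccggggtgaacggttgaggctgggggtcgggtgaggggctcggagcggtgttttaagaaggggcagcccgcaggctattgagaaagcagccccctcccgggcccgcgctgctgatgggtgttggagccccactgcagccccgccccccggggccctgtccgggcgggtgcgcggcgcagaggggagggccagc
Cdkn1a (chr17:29090729-29090978, plus strand): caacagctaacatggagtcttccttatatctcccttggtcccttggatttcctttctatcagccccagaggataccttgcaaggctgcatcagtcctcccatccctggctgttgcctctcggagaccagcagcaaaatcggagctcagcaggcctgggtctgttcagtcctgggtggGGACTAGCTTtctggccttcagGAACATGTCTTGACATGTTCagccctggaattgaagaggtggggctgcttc
Ccng1 (chr11:40755287-40755536, minus strand): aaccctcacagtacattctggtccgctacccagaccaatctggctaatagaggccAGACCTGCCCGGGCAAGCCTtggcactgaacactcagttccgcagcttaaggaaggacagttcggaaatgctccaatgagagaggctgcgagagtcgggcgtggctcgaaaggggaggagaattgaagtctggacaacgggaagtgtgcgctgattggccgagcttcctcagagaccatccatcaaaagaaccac
Bax (chr7:45466899-45467148, minus strand): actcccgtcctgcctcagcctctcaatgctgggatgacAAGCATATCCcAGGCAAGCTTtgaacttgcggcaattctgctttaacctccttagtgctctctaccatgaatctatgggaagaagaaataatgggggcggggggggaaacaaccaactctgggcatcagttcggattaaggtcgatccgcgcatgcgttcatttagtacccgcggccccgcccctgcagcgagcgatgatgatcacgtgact

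The Cdkn1a stretch precedes the more upstream of 2 start sites, which lie 2790 bases apart. It holds 3 half-sites in capitals. The first and second match without a mismatch and are 12 bases apart, an arrangement found in 0.0731% of all windows when any spacer up to 13 bases is allowed. The second and the third adjoin each other with 1 mismatch, as do the half-sites of Ccng1, and 0.0883% of all windows hold such an adjoining pair. The half-sites of Bax are separated by 1 base. These matches are a description of the letters in these windows, and elements outside them were not searched.

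In control hearts at 3 months the members differed widely in level when CPM (the count relative to a library size scaled by TMM) was divided by the length of the gene's exons in kilobases. Ccng1, which encodes the atypical cyclin G1, had the highest level, 131 CPM per kb. Sesn1 (14.8 CPM per kb) and Cdkn1a (11.9 CPM per kb) followed, then Bax (8.40), Mdm2 (6.10), Phlda3 (3.52) and Trp53inp1 (1.66). Sesn2 (0.764), Zmat3 (0.568) and Eda2r (0.396) were lowest on the same scale. Bax, Sesn1 and Sesn2 overlap another annotated gene on the same strand, and Cdkn1a one on the other strand, and reads shared with these genes could not be told apart. Phlda3 (ENSMUSG00000041801) lies on the plus strand of chromosome 1 of GRCm38 from 135766119 to 135769136 and overlaps no other annotated gene.

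Total counts of the libraries lay between 19899033 and 21804907 in the hearts and between 14324700 and 18085339 in NRVMs, with the AdMETTL5 libraries all below the AdGFP libraries. Mettl5, the targeted gene, did not separate the genotypes by its whole-gene count: it ranged from 4.51 to 5.94 CPM in control and from 5.26 to 6.71 in METTL5-KO hearts at 1 month, from 6.87 to 8.12 and from 5.61 to 7.28 at 3 months, and from 5.62 to 7.14 and from 5.60 to 7.32 after TAC. The paper reports that reads over the floxed exons were nearly absent in METTL5-cKO hearts, and a whole-gene count also takes in the remaining exons. In NRVMs the rat Mettl5 count was 16.2 to 18.0 CPM with AdGFP and 19.1 to 23.0 with AdMETTL5. The virus carried the human sequence and reads were aligned to the rat genome, so this count need not measure the delivered RNA. The heart libraries expressed all 10 cardiomyocyte markers looked at, and so did the NRVM libraries, which also held fibroblast markers at 11531 to 12144 summed CPM with AdGFP.

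**Figure D1:**
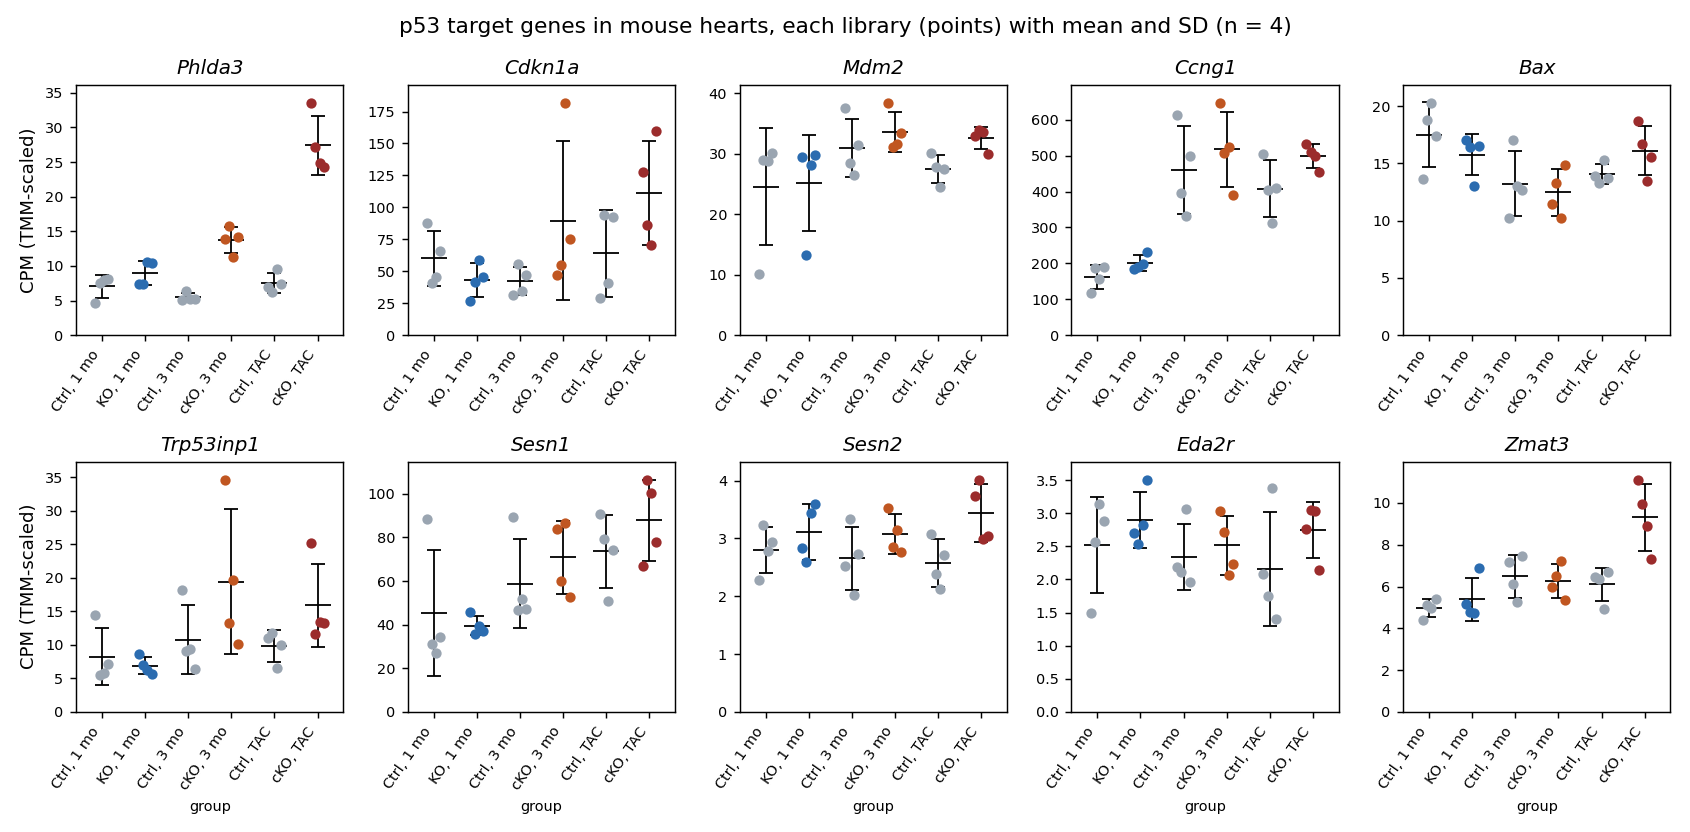
CPM (TMM-scaled library sizes) of the 10 p53 target genes in mouse hearts, 1 panel per gene, with a point for each library and the mean and SD of the 4 libraries of each group. Phlda3 stands apart in METTL5-cKO hearts at 3 months (11.2 to 15.7 CPM) and after TAC (24.3 to 33.5 CPM), and after TAC the Zmat3 values of the genotypes do not overlap either.

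In hearts of 1-month-old METTL5-KO mice none of the 10 members passed the threshold of an adjusted p under 0.05 against control hearts. Phlda3 had 4.62, 7.56, 7.91 and 8.12 CPM in control libraries 1 to 4 and 7.46, 7.46, 10.6 and 10.5 CPM in METTL5-KO libraries 1 to 4. The groups overlapped, with control libraries 2, 3 and 4 above METTL5-KO libraries 1 and 2. Its log2 fold change was 0.36 (SE, the standard error, 0.205, adjusted p = 0.973 by the quasi-likelihood test of edgeR, with p-values adjusted over all genes tested). Cdkn1a, which encodes the cyclin-dependent kinase inhibitor p21, had the largest difference in size, a log2 fold change of -0.48 (SE 0.287, adjusted p = 0.973 in edgeR). The count was also 0 of 10 with DESeq2 and at an unadjusted p under 0.05. Across all 16329 genes tested, 0.00612% were called in either direction, so the count of 0 says little about the members.

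Single libraries carried much of the spread at 1 month. Control library 1 had the lowest Mdm2 (10.1 CPM against 28.9 to 30.2 in the other control libraries) and the highest Sesn1 (88.3 CPM against 26.9 to 34.5) of its group. Sesn1 encodes sestrin 1, which restrains mTORC1. Control library 1 was also the highest for Cdkn1a (88.0 CPM) and for Trp53inp1 (14.5 CPM). Over genes as a whole it stood apart from its group too. The chi-square per degree of freedom between 2 control libraries was 83.5 to 151 with library 1 and 18.1 to 60.0 without it. When control library 1 was left out, the log2 fold change of Sesn1 moved from -0.20 to 0.35 and that of Mdm2 from 0.04 to -0.22. METTL5-KO library 2 was low for Mdm2 as well, at 13.3 CPM against 28.2 to 29.8 in the other 3.

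In unstressed hearts at 3 months, none of the other 9 members passed the threshold beside the high Phlda3 of METTL5-cKO hearts. Phlda3 had 5.04, 6.44, 5.24 and 5.23 CPM in control libraries 1 to 4 and 13.9, 15.7, 11.2 and 14.2 CPM in METTL5-cKO libraries 1 to 4. The lowest METTL5-cKO value was well above the highest control value, and the means were 13.8 ± 1.86 and 5.49 ± 0.644 CPM (SD, n = 4). The log2 fold change was 1.32 (SE 0.132), a value that chose the set and is not tested here. Of the other 9 members, 0 were called in edgeR, 0 with DESeq2 and 1 (Cdkn1a) at an unadjusted p under 0.05, and none had groups without overlap. Of all genes tested, 0.0488% were called higher and 0.0244% lower, and 2.19% were higher with no overlap, so a count of 0 in 9 is near the background. The median log2 fold change of the 9 was 0.17, against 0.00 over all genes tested.

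Among the effectors of cell cycle arrest and cell death, Cdkn1a had the largest difference. Its control libraries 1 to 4 had 31.6, 55.4, 35.0 and 47.0 CPM and its METTL5-cKO libraries 47.4, 54.9, 181 and 75.3 CPM. METTL5-cKO library 3 was far above the others, and libraries 1 and 2 lay within the control range. The log2 fold change was 1.09 (SE 0.399, adjusted p = 0.597 in edgeR, unadjusted p = 0.0220), and leaving out 1 library at a time moved it between 0.48 and 1.30. Trp53inp1, which encodes a nuclear and autophagy-linked protein that promotes p53 phosphorylation, had 18.1 CPM in control library 1 and 6.33 to 9.43 in the other 3, and 34.5, 13.3, 19.7 and 10.1 CPM in METTL5-cKO hearts. The genotypes overlapped, with library 1 the highest of both, and the log2 fold change was 0.86 (SE 0.410, adjusted p = 0.738 in edgeR). Bax, the pore-forming protein of the mitochondrial pathway of apoptosis, had 13.2 ± 2.84 CPM in control and 12.5 ± 2.03 CPM in METTL5-cKO hearts (SD, n = 4).

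The remaining 6 members did not pass the threshold at 3 months either. That of Mdm2, the feedback inhibitor of p53, was 0.12 (SE 0.123). Sesn1 and Sesn2, the sestrins that restrain mTORC1, had log2 fold changes of 0.27 and 0.21. Ccng1 had 0.17, Eda2r, a receptor of the TNF receptor family that binds ectodysplasin A2, had 0.11, and Zmat3, a zinc finger protein that binds RNA and steers splicing, had -0.05. 

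Markers of most other cell types of the heart leaned to 1 side at 3 months as well, although none of them passed the threshold in edgeR. Of all genes tested, 2.19% were higher with no overlap, and the median log2 fold change was 0.00. The shares of all genes that were lower with no overlap or under an unadjusted p of 0.05 are not given here. All 8 fibroblast markers had log2 fold changes above 0, 6 at an unadjusted p under 0.05 and 3 with no overlap of the groups, with sums of 419 to 566 CPM in control and 517 to 762 CPM in METTL5-cKO hearts. All 6 macrophage markers did so too, 5 at an unadjusted p under 0.05 and 2 with no overlap, with sums of 101 to 135 and 127 to 192 CPM. All 6 endothelial markers had log2 fold changes below 0, 3 at an unadjusted p under 0.05 and 1, Kdr, with no overlap, with sums of 496 to 781 and 390 to 591 CPM. The 4 smooth muscle and 10 cardiomyocyte markers were below 0 too, 3 and 0 of them at an unadjusted p under 0.05. The smooth muscle marker Myh11 was lower with no overlap. Of 3 lymphocyte markers tested 1 was above 0 and 2 were below, with 0 at an unadjusted p under 0.05. The part of these cells in the levels of Phlda3 and the other members at this age was not tested.

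In hearts 4 weeks after TAC, the log2 fold changes of all 9 other members were above 0, but 1 of the 9, Zmat3, passed the threshold. Phlda3 had 6.94, 6.18, 9.57 and 7.42 CPM in control libraries 1 to 4 and 33.5, 27.1, 24.8 and 24.3 CPM in METTL5-cKO libraries 1 to 4. The lowest METTL5-cKO library was above the highest control library, and the log2 fold change was 1.87 (SE 0.152), given as a description. Zmat3 had 6.45, 6.37, 4.94 and 6.69 CPM in control hearts and 11.1, 9.93, 8.89 and 7.34 CPM in METTL5-cKO hearts. The groups did not overlap, although METTL5-cKO library 4 was close to the control range. Zmat3 rose by a log2 fold change of 0.61 (SE 0.145, adjusted p = 0.0286 in edgeR). Across all 16340 genes tested, 6.57% were called higher and 6.1% lower, 9.41% were higher with no overlap, and 49.4% had a log2 fold change above 0. These shares moved with single libraries: 1074 genes were called higher and 997 lower with all 8, and with 1 left out the genes called in either direction numbered between 479 (without control library 4, 1.75% higher) and 3899 (without METTL5-cKO library 4, 11.8% higher). METTL5-cKO library 4 stood apart from the other 3 of its group, with a chi-square per degree of freedom of 33.8 to 40.3 against 8.93 to 19.0 among those. The median log2 fold change was 0.36 over the 9 members and 0.00 over all genes tested.

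The call of Zmat3 rested on the whole set of libraries and on the filter on low counts. Its adjusted p in edgeR was 0.0536 without the filter on low counts. It was 0.0717, 0.0859 and 0.0556 without METTL5-cKO library 1, 2 or 3 and 0.0657, 0.0643 and 0.0649 without control library 2, 3 or 4. It was 0.00502 without METTL5-cKO library 4 and 0.0479 without control library 1. With any 1 library left out, its log2 fold change lay between 0.51 and 0.71.

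The remaining 8 members did not pass the threshold after TAC. Cdkn1a varied widely in both genotypes, with 29.2, 94.0, 40.5 and 92.7 CPM in control libraries 1 to 4 and 128, 85.9, 70.7 and 160 CPM in METTL5-cKO libraries 1 to 4. The METTL5-cKO values began within the control range, and the log2 fold change of 0.79 had an SE of 0.395 (adjusted p = 0.206 in edgeR). Mdm2 had 30.1, 27.9, 24.5 and 27.5 CPM in control and 32.9, 33.9, 33.6 and 29.9 CPM in METTL5-cKO hearts. The groups overlapped by 1 library, METTL5-cKO library 4, and the log2 fold change was 0.25 (SE 0.0820, adjusted p = 0.0771 in edgeR). Mdm2 passed the threshold with DESeq2's Wald test (adjusted p = 0.0362), with scaling by library size alone (adjusted p = 0.0371 in edgeR) and without METTL5-cKO library 4 (adjusted p = 0.0300 in edgeR).

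The sestrins, which dampen mTORC1 signaling and oxidative stress, had log2 fold changes of 0.25 (Sesn1, SE 0.193, adjusted p = 0.404 in edgeR) and 0.42 (Sesn2, SE 0.158, adjusted p = 0.109 in edgeR). Sesn2 was low in the heart, at 2.58 ± 0.409 CPM in control and 3.44 ± 0.505 CPM in METTL5-cKO hearts (SD, n = 4), and its groups overlapped. It passed the threshold with scaling by library size alone (adjusted p = 0.0487 in edgeR). Trp53inp1 had 9.82 ± 2.34 CPM and 15.9 ± 6.22 CPM in the same order, with METTL5-cKO library 1 at 25.1 CPM and the other 3 at 11.7 to 13.5 CPM (log2 fold change 0.69, adjusted p = 0.109 in edgeR). Bax, Ccng1 and Eda2r had log2 fold changes of 0.19, 0.29 and 0.36 with adjusted p of 0.242, 0.176 and 0.375 in edgeR.

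Markers of other cells of the heart moved with the genotype after TAC, where 6.57% of all genes tested were called higher and 6.1% lower. Summed levels of 8 fibroblast markers ranged from 578 to 767 CPM in control and from 924 to 2987 CPM in METTL5-cKO hearts, and 7 of the 8 rose in edgeR. Of 6 macrophage markers 3 rose, with sums of 146 to 176 and 195 to 240 CPM. Of 10 cardiomyocyte markers 3 fell (Tnni3, Myl2 and Myl3) and of 6 endothelial markers 5 fell. Of 4 smooth muscle markers 0 were called. With 1 library left out, called fibroblast markers numbered 1 (without control library 4) to 8 and called endothelial markers 2 to 6. Called macrophage markers numbered 1 to 4. Called cardiomyocyte markers numbered 0 (without METTL5-cKO library 2 or control library 4) to 7 (without METTL5-cKO library 4). None of these markers was at 0 in a library. Their part in the levels of Phlda3 and Zmat3 was not tested, and in RNA of whole hearts fewer cells of a type and less RNA per cell cannot be told apart.

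The genotype effects after TAC and at 3 months were set against each other by an interaction term in a fit over the 16 libraries of both tables. None of the 9 members passed the threshold in edgeR or DESeq2, where 0.00586% of 17070 genes were called in either direction. Zmat3 had the largest value, an interaction of 0.68 on the log2 scale (SE 0.215, adjusted p = 0.218, unadjusted p = 0.00628), and was the single member under an unadjusted p of 0.05. Its adjusted p was 0.0472 without METTL5-cKO library 4 after TAC. The corresponding value of Phlda3 was 0.56 (SE 0.207), again as a description. The values of the other 8 lay between -0.28 (Cdkn1a) and 0.30 (Bax).

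The same fit gave the difference between the TAC table and the 3-month table within each genotype, in which surgery and the table cannot be told apart. Between control hearts, none of the 9 members was called in edgeR, with DESeq2 or at an unadjusted p under 0.05, against 0.34% of all genes called higher and 0.176% called lower. Phlda3 had means of 7.52 CPM after TAC and 5.48 CPM at 3 months there. Between METTL5-cKO hearts, Zmat3 was higher after TAC, with 9.38 ± 1.64 CPM against 6.24 ± 0.851 CPM (SD, n = 4, log2 fold change 0.59, SE 0.150, adjusted p = 0.0126 in edgeR), where 10.2% of all genes were called higher and 8.89% lower. This call was lost without METTL5-cKO library 1 after TAC (adjusted p = 0.0516 in edgeR). Phlda3 had 27.6 and 13.7 CPM in the same order. These contrasts share their libraries with the comparisons of genotypes given above.

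**Figure D2:**
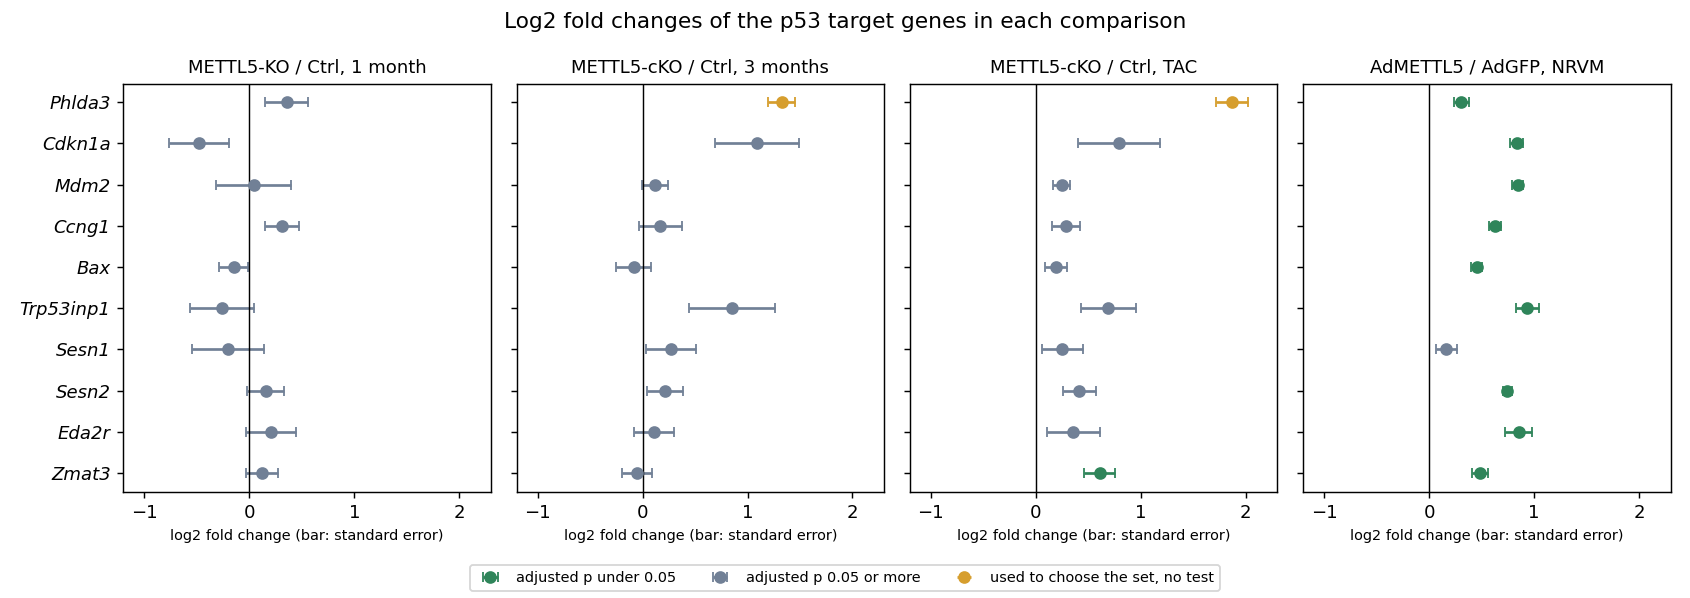
Log2 fold changes of the 10 p53 target genes with their standard errors (bars) in the 4 comparisons, METTL5-KO or METTL5-cKO over control in hearts and AdMETTL5 over AdGFP in NRVMs. Green points passed an adjusted p under 0.05 in edgeR, grey points did not, and Phlda3 at 3 months and after TAC is drawn in yellow because its values chose the set. Green points are 9 of 10 in NRVMs and Zmat3 alone in hearts.

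In PE-treated NRVMs with AdMETTL5, 9 of the 10 members rose, and Sesn1 did not pass the threshold. The share of all 15041 genes called higher was 27.1% and that called lower 25.7%, so a call as such was common in this comparison. The 9 members that rose had no overlap between the groups, as had 25.2% of all genes in that direction. The median log2 fold change of the 10 was 0.69, against 0.00 over all genes tested, and 6 of the 10 were over 0.5, as were 11.4% of all genes. None of the 10 reached an absolute log2 fold change of 1. The same 9 members were called in each alternative that kept the threshold at an adjusted p under 0.05, including each fit that left out 1 library. When libraries were scaled by their size alone, the median of all genes moved to 0.13.

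**Figure D3:**
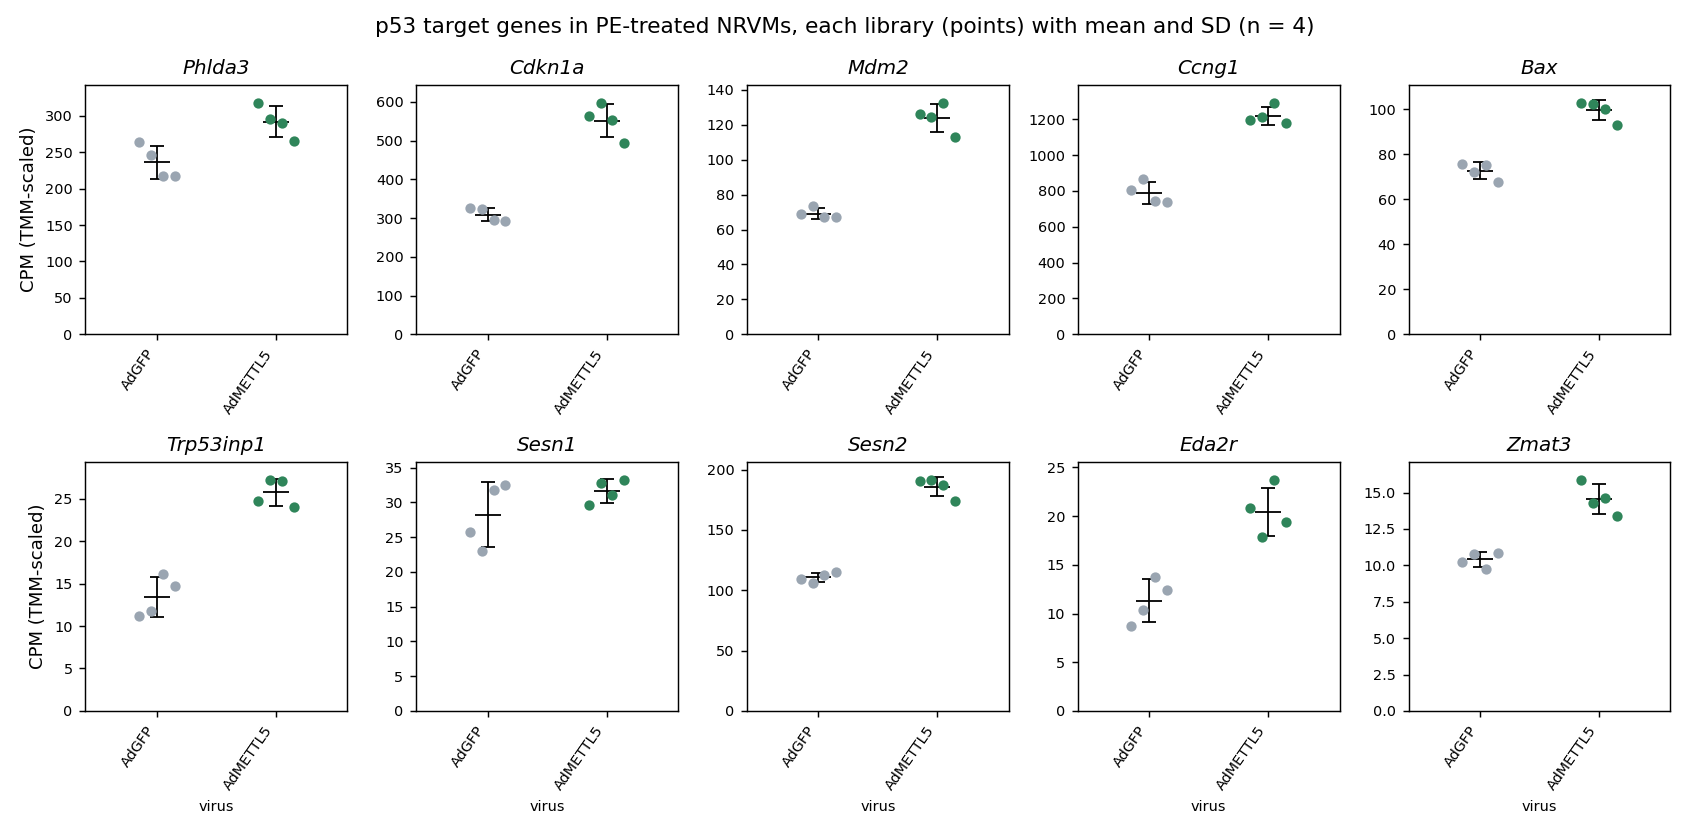
CPM (TMM-scaled library sizes) of the 10 p53 target genes in PE-treated NRVMs, 1 panel per gene, with a point for each library and the mean and SD of the 4 libraries with AdGFP (grey) and AdMETTL5 (green). The groups are apart for all members but Sesn1, narrowly for Phlda3, whose highest AdGFP library (264 CPM) lies just under its lowest AdMETTL5 library (265 CPM).

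Phlda3 had the smallest difference of the 9 that rose. Its libraries had 264, 246, 217 and 217 CPM with AdGFP and 317, 296, 291 and 265 CPM with AdMETTL5. The groups were apart by a narrow gap, and the log2 fold change was 0.31 (SE 0.0725, adjusted p = 0.00355 in edgeR). The contrast at 1 month aside, this was the comparison of Phlda3 that the choice of the set did not use. Its level in NRVMs was far above that in the hearts, but the tables of the 2 species were counted and scaled separately.

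Cdkn1a had 326, 323, 295 and 293 CPM with AdGFP and 563, 596, 554 and 493 CPM with AdMETTL5, a rise of 0.83 on the log2 scale (SE 0.0631, adjusted p = 6.37e-07 in edgeR). Mdm2 had 69.2, 73.3, 67.0 and 67.2 CPM with AdGFP and 126, 124, 132 and 113 CPM with AdMETTL5, a rise of 0.84 (SE 0.0550, adjusted p = 1.93e-07 in edgeR). The changes of the cell cycle inhibitor and of the feedback inhibitor of p53 were close in size, and the libraries within each group lay close together. Ccng1, whose product recruits a phosphatase to MDM2, rose from 788 ± 60.9 to 1219 ± 48.5 CPM (SD, n = 4, log2 fold change 0.63).

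Of the genes linked to cell death and stress signaling, Trp53inp1 had 11.1, 11.8, 16.1 and 14.7 CPM with AdGFP and 24.8, 27.2, 27.0 and 24.0 CPM with AdMETTL5. It had the largest log2 fold change of the 10, 0.94 (SE 0.106, adjusted p = 1.62e-05 in edgeR). Eda2r rose from 11.3 ± 2.23 to 20.4 ± 2.48 CPM (SD, n = 4, log2 fold change 0.85, adjusted p = 0.000166 in edgeR). Bax rose from 72.7 ± 3.65 to 99.5 ± 4.40 CPM (log2 fold change 0.45) and Zmat3 from 10.4 ± 0.518 to 14.6 ± 1.01 CPM (log2 fold change 0.48).

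The 2 sestrins parted. Sesn2 had 110, 106, 112 and 115 CPM with AdGFP and 190, 191, 188 and 174 CPM with AdMETTL5, a log2 fold change of 0.75 (SE 0.0466, adjusted p = 1.46e-07 in edgeR). Sesn1 had 25.7, 23.0, 31.8 and 32.5 CPM with AdGFP and 29.6, 32.8, 31.0 and 33.2 CPM with AdMETTL5. These groups overlapped, and the log2 fold change was 0.16 (SE 0.101, adjusted p = 0.195 in edgeR). The difference between the 2 sestrins was not tested.

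Other RNA moved with AdMETTL5 in NRVMs as well, where 27.1% of all genes tested were called higher and 25.7% lower. All 10 cardiomyocyte markers fell, with summed levels of 31643 to 35571 CPM with AdGFP and 12365 to 13434 CPM with AdMETTL5. Of 7 fibroblast markers tested 6 fell, with sums of 11531 to 12144 and 9112 to 10042 CPM, and of 5 macrophage markers 3 fell. Of 4 smooth muscle markers 2 rose, and of 4 endothelial markers tested 1 rose. Cell cycle genes rose in 12 (63.2%) and fell in 2 of 19 cases. Among those that rose were Ccne2 (log2 fold change 1.73) and Ccne1 (1.20), the E-type cyclins of entry into S phase. Mcm3 (1.18), a subunit of the replicative helicase, and Mki67 (0.79), a marker of proliferating cells, rose as well. The part of these changes in the levels of the p53 targets was not tested.

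A wider list of 50 genes known as p53 targets gave the context of the 10 members. At 1 month 0 of 44 tested and at 3 months 0 of 43 tested were called in edgeR, and 2 and 5 had an unadjusted p under 0.05. Of all genes, 0.00612% were called in either direction at 1 month, and 0.0488% higher and 0.0244% lower at 3 months. The share of all genes under an unadjusted p of 0.05 was not counted in any comparison. At 3 months, Perp, a membrane protein of desmosomes and apoptosis, had 83.7 ± 4.62 CPM in control and 125 ± 11.6 CPM in METTL5-cKO hearts (SD, n = 4), with no overlap but an adjusted p of 0.0981 in edgeR. It lies outside the rule for naming genes and was chosen after its values were seen, as were Gdf15 (adjusted p = 0.316 in edgeR) and Aen (adjusted p = 0.512 in edgeR), the other two genes of the list whose groups did not overlap at 3 months. These are 3 of 43, and 2.19% of all genes tested were higher with no overlap at that age.

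After TAC, 8 of 44 genes of the wider list rose and 1 fell (18.2% higher against 6.57% of all genes), with a median log2 fold change of 0.10. With 1 library left out, 5 (11.1%) to 10 (22.2%) rose, the lowest without control library 4 or METTL5-cKO library 2 (where 1.75% and 2.01% of all genes were higher) and the highest without METTL5-cKO library 4 (11.8% of all genes). Gdf15, a secreted stress cytokine, rose from 1.36 ± 0.641 to 20.5 ± 13.2 CPM (SD, n = 4, log2 fold change 3.91, SE 0.552, adjusted p = 0.00716 in edgeR). Sulf2, a sulfatase that edits heparan sulfate outside the cell, rose from 31.7 ± 1.53 to 62.5 ± 6.46 CPM (log2 fold change 0.98, adjusted p = 0.00128 in edgeR). Aen, an apoptosis-enhancing nuclease, rose by 0.61, Perp by 0.57, Btg2, an antiproliferative cofactor of mRNA decay, by 0.57, and Zfp365 by 1.64 on the log2 scale. The other 2 that rose were Tob1 and Bid. The gene that fell was Ddb2, a sensor of UV damage (log2 fold change -0.69), where 6.1% of all genes were called lower. No gene of the list was called lower without METTL5-cKO library 1, 2 or 3 or without control library 2, 3 or 4. Tob1, Bid and Ddb2 are named outside the rule, after their values were seen.

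In NRVMs 31 of 47 genes of the wider list rose and 2 fell with AdMETTL5 (66.0% higher against 27.1% of all genes), with a median log2 fold change of 0.31. Kitlg, the ligand of the receptor KIT, rose from 13.1 ± 1.87 to 69.5 ± 4.70 CPM (SD, n = 4, log2 fold change 2.40, SE 0.0887, adjusted p = 7.51e-09 in edgeR). Pml, the organizer of PML nuclear bodies and also an interferon-stimulated gene, rose by 1.37 on the log2 scale. Gtse1, which restrains p53 in G2, rose by 0.93, Polh, a translesion DNA polymerase, by 0.93, Ddit4, an inhibitor of mTORC1, by 0.90, and Aen by 0.82. The genes that fell were Ercc5 and Gadd45a, named here after their values were seen.

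**Figure D4:**
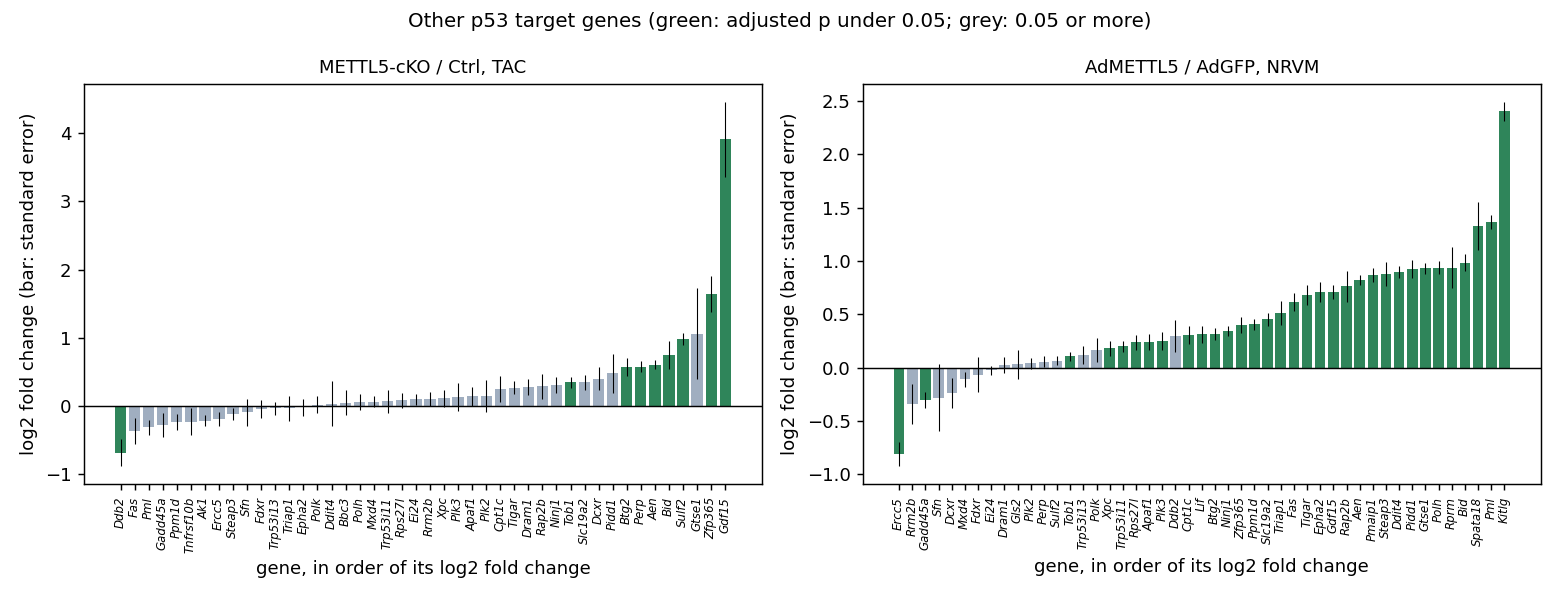
Log2 fold changes (bars from 0) with standard errors (lines) of the genes tested from the wider list of p53 targets, in order of size, in METTL5-cKO over control hearts after TAC (left, 44 genes) and AdMETTL5 over AdGFP NRVMs (right, 47 genes). Green bars passed an adjusted p under 0.05 in edgeR, 9 on the left and 33 on the right. The vertical scales differ between the panels, with Gdf15 at 3.91 on the left and Kitlg at 2.40 on the right.

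Of the 11 or 12 genes for p53 and its regulators tested in hearts, none passed the threshold in edgeR in any comparison of genotypes, and 0 at 1 month, 1 at 3 months and 1 after TAC had an unadjusted p under 0.05. After TAC, 6.57% of all genes were called higher and 6.1% lower. Trp53, which encodes p53, had log2 fold changes of 0.00 at 1 month and -0.20 at 3 months. After TAC it had 13.2 ± 3.09 CPM in control and 13.2 ± 1.81 CPM in METTL5-cKO hearts (SD, n = 4, adjusted p = 0.995 in edgeR). Mdm4, the relative of MDM2 that masks the activation domain of p53, had log2 fold changes of 0.08 at 1 month and 0.46 at 3 months (adjusted p = 0.997 and 0.755 in edgeR), with 31.7 ± 10.0 CPM in control and 43.5 ± 5.90 CPM in METTL5-cKO hearts at 3 months. After TAC it had 39.2 ± 5.13 and 24.1 ± 11.1 CPM, a log2 fold change of -0.70 with no overlap but an adjusted p of 0.201 in edgeR. Its interaction was -1.15 on the log2 scale (unadjusted p = 0.0222, adjusted p = 0.332 in edgeR). In NRVMs 2 of 12 of these genes rose with AdMETTL5, 16.7% against 27.1% of all genes, and 2 fell, where 25.7% of all genes did. Trp53 rose from 124 ± 5.49 to 155 ± 6.63 CPM (log2 fold change 0.32, adjusted p = 0.000169 in edgeR) and Wrap53 by 0.47. Wrap53 lies head to head with Trp53 on the other strand, and the strandedness of the libraries is not given in the sources used here. Hipk2, a kinase that phosphorylates p53, fell by 0.79 on the log2 scale and Atr, a kinase of replication stress, by 0.18, while Mdm4 had a log2 fold change of 0.08 (adjusted p = 0.538 in edgeR).

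Of 10 relatives of the members tested in hearts, 0 were called at 1 month and 0 at 3 months. After TAC 1 rose and 1 fell, where 6.57% of all genes were called higher and 6.1% lower. In NRVMs 5 of 12 relatives rose, 41.7% against 27.1% of all genes, and 3 fell, where 25.7% of all genes did. Whether the relatives differed from the members was not tested. Phlda1, a relative of Phlda3, had log2 fold changes of -0.05, -0.01 and 0.19 at 1 month, 3 months and after TAC, with adjusted p between 0.586 and 1.00 in edgeR, and Phlda2 was not tested in hearts. In NRVMs Phlda1 fell by 0.46 on the log2 scale (adjusted p = 2.73e-05 in edgeR), while Phlda2 rose by 0.71 (adjusted p = 0.0113 in edgeR) from 1.60 to 2.61 CPM. Cdkn1c, which encodes the inhibitor p57, fell after TAC in METTL5-cKO hearts (log2 fold change -0.64, adjusted p = 0.0366 in edgeR) and rose in NRVMs with AdMETTL5 (log2 fold change 1.33, adjusted p = 7.77e-06 in edgeR). Bak1, the pore-forming relative of Bax, rose in both, by 0.43 and 0.28 on the log2 scale. The calls after TAC rested on single libraries. No relative was called lower without METTL5-cKO library 1, 2 or 3 or without control library 2, 3 or 4. None was called higher without METTL5-cKO library 2 or control library 4. Bok, a further relative of Bax, and Trp53inp2 fell in NRVMs, by 0.74 and 0.56.

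Genes of AKT and mTORC1 signaling, the pathway that PHLDA3 and the sestrins act on, were called in none of 12 cases in the 3 comparisons of hearts, with 0, 0 and 2 at an unadjusted p under 0.05. In NRVMs 4 of 12 rose, 33.3% against 27.1% of all genes, among them Mtor, the kinase of mTORC1 (log2 fold change 0.29), and 2 fell, Akt2 (-0.23) and Pdpk1 (-0.34). Genes of the integrated stress response, which also raises Sesn2 and Ddit4, rose in 2 of 12 cases after TAC, 16.7% against 6.57% of all genes (Mthfd2 with a log2 fold change of 1.68 and Atf4 with 0.30). In NRVMs 7 of 12 rose, 58.3% against 27.1% of all genes, and 1 fell, with Chac1 at 0.57, Trib3 at 0.59, Slc7a11 at 0.57 and Asns at -0.29 on the log2 scale.

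Over the 16 libraries of the 3-month and TAC hearts, the genes whose log2 CPM was most like that of Phlda3 included Ptx3 (Pearson's r = 0.924), C1ra (0.924), P4hb (0.922), Comtd1 (0.919) and Pld3 (0.915), none of them on the lists of p53 targets used here. Of the other members Sesn2 was the most like Phlda3 (r = 0.645), followed by Zmat3 (0.611) and Cdkn1a (0.578), and Ccng1 was the least (0.294). Among 17069 genes these 4 held places 1441, 1768, 2110 and 5142. The 16 points include the 4 groups that differ in Phlda3 by the choice of the set, so these values describe the groups as well as the libraries within them.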

How the data were processed

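The authors aligned the reads with HISAT2 2.0.4 to GRCm38 (mouse) or Rnor_6.0 (rat) and deposited the estimated counts of StringTie 2.1.4, whole numbers without scaling. Strandedness is not given in the sources used here. Columns were matched to single samples at 1 month and to groups elsewhere, where libraries 1 to 4 follow the numbers in the headers. Each table was fitted with edgeR 4.0.16 in R 4.3.3 (TMM, filterByExpr with a minimum count of 10 and minimum total of 15, glmQLFit, glmQLFTest), taking estimated counts as counts. Genes with a Benjamini-Hochberg adjusted p under 0.05 were called. One further fit joined the 3-month and TAC tables. No libraries of a group were duplicates (lowest chi-square per degree of freedom 2.16). Scripts were tested on simulated data.

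The members and lists were chosen with earlier results of these data known. Named were all members, Mettl5, Trp53, Mdm4, Phlda1, Phlda2, the 6 genes most like Phlda3 and, of each list, at most the 6 called genes with the smallest adjusted p per comparison. Some genes selected this way are not reported here. Alternatives were DESeq2 1.42.0, DESeq2's size factors, library size as the scale, no filter, at least 10 counts in every sample, other thresholds, the replicate number as a block and leaving out each library. Leaving out each library for the lists after TAC was added after seeing the data. Promoters are RefSeq windows (GRCm38.p6).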

Additional observations from a re-analysis of the deposited data

Results flagged for a closer look

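In 8 of 80 groups of 4 libraries (10 members in 8 groups), 1 library lay far from the others by Dixon's test, where chance gives about 5% of groups. Of these 8, 5 came from the hearts at 1 month. Control library 1 there, which stood apart over genes as a whole, had the lowest Phlda3 (4.62 CPM), the lowest Mdm2 (10.1 CPM) and the highest Sesn1 (88.3 CPM) of its group. METTL5-KO library 2 had the lowest Mdm2 (13.3 CPM) and METTL5-KO library 3 the lowest Bax (13.1 CPM). In control hearts at 3 months, Sesn1 was highest in library 1 (89.1 CPM) and Phlda3 in library 2 (6.44 CPM). In METTL5-cKO hearts after TAC, Trp53inp1 was highest in library 1 (25.1 CPM).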

How the results depend on the processing

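The number of members called higher was 0 at 1 month in each alternative. Elsewhere it moved as follows, with Phlda3 left out of the counts where it chose the set. At an unadjusted p under 0.05 it was 1 at 3 months (0 as reported), 4 after TAC (1 as reported), 1 for the interaction (0 as reported) and 2 for TAC against 3 months in METTL5-cKO hearts (1 as reported). With an absolute log2 fold change over 1 it was 0 after TAC, 0 in NRVMs (9 as reported) and 0 for TAC against 3 months in METTL5-cKO hearts. After TAC it was 2 with DESeq2, 3 with library size as the scale, 0 without a filter on low counts and 0 to 2 with 1 library left out. For TAC against 3 months in METTL5-cKO hearts it was 2 with library size as the scale (Bax was added) and 0 to 2 with 1 library left out. For the interaction it was 0 to 1 with 1 library left out. Library size as the scale moved the median of all genes to 0.14 after TAC and to 0.13 in NRVMs. The causes of these moves were not tested, except that fewer libraries enter each fit that leaves out 1.

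Signs turned in members that were not called. The interaction of Sesn1, 0.00 as reported, was -0.00103 with DESeq2, -0.00845 with its size factors and -0.00440 without a filter. Mdm2 for TAC against 3 months in METTL5-cKO hearts was 0.00796 with library size as the scale. Log2 fold changes that turned with 1 library left out ranged as follows. At 1 month Mdm2 ranged from -0.22 to 0.25, Trp53inp1 from -0.41 to 0.17, Sesn1 from -0.38 to 0.35 and Zmat3 from -0.0199 to 0.18. At 3 months Bax ranged from -0.19 to 0.0592 and Zmat3 from -0.14 to 0.0209. In the interaction Cdkn1a ranged from -0.53 to 0.33, Ccng1 from -0.0391 to 0.26, Trp53inp1 from -0.53 to 0.28 and Sesn1 from -0.27 to 0.12. For TAC against 3 months in control hearts Bax ranged from -0.0159 to 0.23, Trp53inp1 from -0.31 to 0.25, Sesn2 from -0.15 to 0.0811 and Eda2r from -0.42 to 0.0447. In METTL5-cKO hearts Mdm2 ranged from -0.0645 to 0.0397, Ccng1 from -0.16 to 0.0841 and Trp53inp1 from -0.59 to 0.15.

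At 1 month, a fit with the replicate number as a block was run, and 0 members were called in it, as without the block. Libraries of the same number deviated with correlations of 0.239, 0.120, -0.107 and 0.0782 from their group means, and 2 of 4 correlated best with their own number. With 4 libraries in a group, these values cannot decide whether libraries that share a number were paired. In the other tables no paired analysis was possible because the columns carry no replicate numbers of the labels.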
